A study of Sus scrofa with 15 samples.

Results

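The anaphase promoting complex (APC/C), its co-activators and its inhibitors were followed through the maturation of pig oocytes. The genes described were CDC20, FZR1, FBXO43, FBXO5, ANAPC1, ANAPC4, ANAPC10, CDC16, CDC23 and CDC27. They were chosen by symbol, with earlier results of these data known. They are 10 of the 22516 genes in the deposited gene table, and all 10 passed the filter on low counts. RNAseq had been performed on 15 libraries of 15 oocytes each, 5 from oocytes at the germinal vesicle (GV) stage, taken from fresh follicles without culture, 5 from metaphase II (MII) oocytes, which had a first polar body after 44 h of in vitro maturation, and 5 from 'damaged' oocytes, which lacked a first polar body after the same 44 h. All oocytes came from sow ovaries from an abattoir and were freed of cumulus cells with hyaluronidase. MII and 'damaged' libraries were also joined as MIX. GV replicate 3, the library with the lowest depth, was left out of the tests, so that 4 GV libraries were set against 10 MIX libraries.

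The APC/C is a ubiquitin ligase that marks cyclin B1 and securin for destruction and thereby lets chromosomes separate. CDC20 activates it at the metaphase to anaphase transition, while FZR1, also named CDH1, activates it in G1 and in oocytes held at prophase I, where it keeps cyclin B1 low. FBXO5 (EMI1) and FBXO43 (EMI2) inhibit the complex, and FBXO43 is the inhibitor known for holding mature oocytes at metaphase II until fertilisation. ANAPC1 and ANAPC4 belong to the scaffold, ANAPC10 helps to bind substrates, and CDC16, CDC23 and CDC27 form the arm of tetratricopeptide repeats on which the co-activators dock.

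Library totals lay between 6.40 and 23.6 M estimated counts. Of the 12 oocyte marker genes looked for, 11 had counts, all 11 had a mean above 1 TPM (a level per transcript length, with 1 common total for all libraries) in each group, and their summed level was 15600 to 18400 TPM in the 4 GV and 10600 to 13000 TPM in the 10 MIX libraries. For 14 cumulus cell markers, 11 had counts, with a summed level of 10.5 to 18.3 TPM in GV and of 1.29 to 4.84 TPM in MIX. FOXL2, CYP19A1 and PTX3 were not found, HAS2, CYP11A1, INHBA and AMH stayed under 10 counts in each library, and the part of cumulus RNA in the differences below was not tested. In the deposited gene table, 7 of 15 columns summed to the total of a differently named library, so groups were taken from the labels of the per-library files, and the calls on the 10 genes are also given for the 8 libraries whose names and totals agreed.

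Scaled with TMM factors, CDC20, FBXO43, ANAPC1, ANAPC4, ANAPC10, CDC16 and CDC27 were higher in MIX than in GV, and FZR1 was lower. When only library sizes were used for scaling, the rise of FBXO43, ANAPC1 and ANAPC4 did not pass the limit given below. Levels are in CPM, that is, gene counts scaled to a common library total, here with TMM factors. Of the 10 genes, 7 were called higher at an adjusted p under 0.01, where 30.4% of all 13220 genes tested were called higher. A single gene, FZR1, was called lower, against 37.2% of all genes. FBXO5 and CDC23 did not pass. The median log2 fold change was 1.25 (n = 10 genes) beside -0.16 over all genes tested. The same 7 and 1 calls were counted with the 8 libraries of agreeing names, which hold 2 GV libraries. In 7 genes all 10 MIX libraries lay above all 4 GV libraries, which was so for 24.4% of all genes, and in 1 gene all MIX libraries lay below all GV libraries, against 29.3% of all genes. A further criterion, an absolute log2 fold change above 2, defines a differentially expressed gene (DEG) here. CDC20 was 1 DEG higher in MIX (4.27% of all genes) and FZR1 was 1 DEG lower in MIX (16.7% of all genes). CDC20 was close to this limit. Its log2 fold change was 1.97 to 2.14 with 1 library left out and 1.16 when only library sizes were used for scaling. For FZR1 these values were -2.85 to -2.53 and -3.61.

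**Figure D1:**
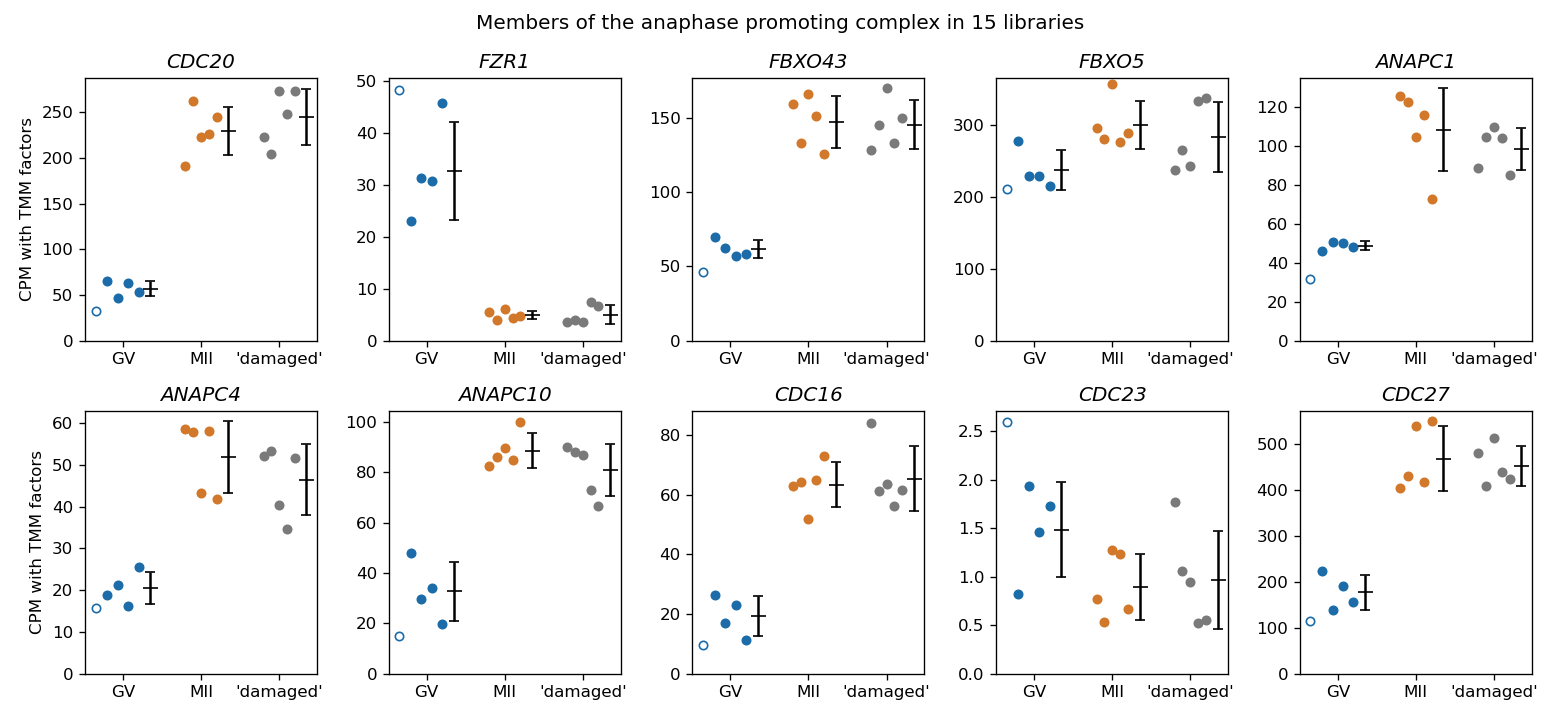
CPM with TMM factors of each gene by library, with a panel per gene and linear axes from 0. Filled points are libraries, bars are the mean ± SD of the filled points (4 GV, 5 MII, 5 'damaged'), and the open point is GV replicate 3, which is not in the mean. FZR1 is the gene with MII and 'damaged' libraries far below GV (3.58 to 7.37 CPM against 23.0 to 45.7 CPM), while FBXO5 and CDC23 overlap.

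The co-activators moved in opposite directions. CDC20 (ENSSSCG00000003949, chromosome 6 from 167886266 to 167890587 on Sscrofa11.1) stood at 64.9, 46.7, 63.0 and 53.4 CPM in GV replicates 1, 2, 4 and 5. The 5 MII libraries had 192, 263, 223, 227 and 245 CPM. In the 5 'damaged' libraries CDC20 was at 223, 205, 273, 248 and 273 CPM. Each matured library thus lay above each GV library, and MII and 'damaged' overlapped over most of their range. The log2 fold change of MIX against GV was 2.06 ± 0.12 (SE, adjusted p = 4.65e-12, limma-voom). GV replicate 3, outside the fit, had the lowest value of all libraries at 32.3 CPM.

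FZR1 (ENSSSCG00000013481, chromosome 2 from 75122599 to 75164134) had 23.0, 31.4, 30.8 and 45.7 CPM in the 4 GV libraries. It fell to 5.49, 3.99, 6.06, 4.43 and 4.75 CPM in MII and to 3.63, 3.91, 3.58, 7.37 and 6.58 CPM in 'damaged' libraries. No matured library came near the lowest GV library, and the spread among GV libraries was wider than for CDC20. MIX minus GV was -2.72 ± 0.19 on the log2 scale (SE, adjusted p = 5.48e-11). Behind these values stood 451 to 1103 counts per GV library and 47.8 to 115 counts per MIX library. GV replicate 3 had the highest level, 48.3 CPM.

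Because the genes share a library, their ratio does not depend on how libraries are scaled. The TPM ratio of CDC20 to FZR1 was 2.30 to 5.55 in the 4 GV libraries, 68.8 to 130 in MII and 66.4 to 150 in 'damaged' libraries. On the log2 scale this was 1.81 ± 0.55 (SD, n = 4) in GV, 6.52 ± 0.38 (SD, n = 5) in MII and 6.65 ± 0.46 (SD, n = 5) in 'damaged'. The ratio therefore separated GV from the matured groups without overlap and did not separate MII from 'damaged'. In GV replicate 3 it was 1.32.

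**Figure D2:**
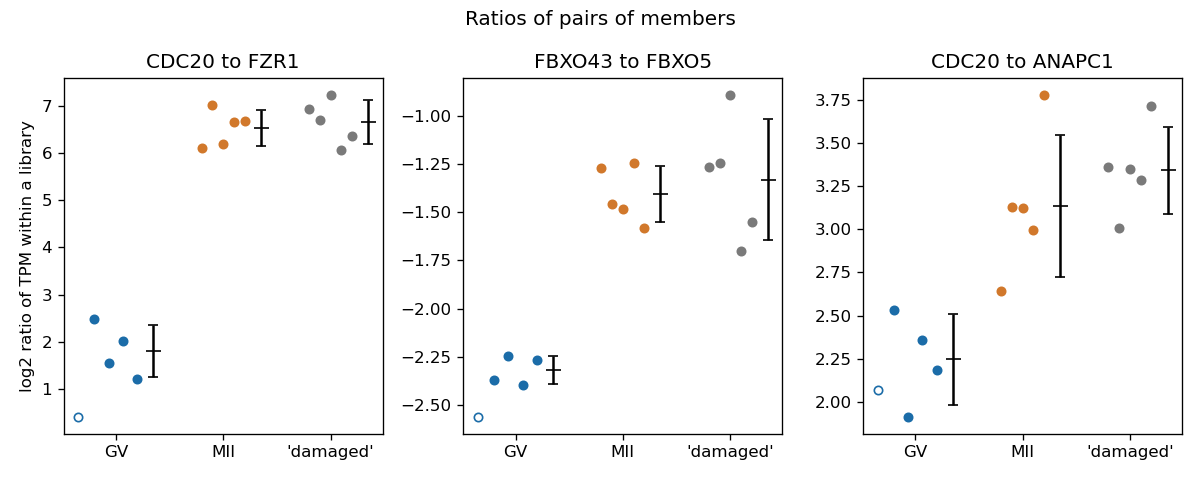
Log2 ratio of TPM of 3 pairs of genes within each library, by group. Points are libraries, bars are the mean ± SD, and the open point is GV replicate 3, outside the mean. The CDC20 to FZR1 ratio lies at 1.20 to 2.47 in the 4 GV libraries and at 6.05 to 7.23 in the 10 matured libraries.

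The inhibitors did not move alike. FBXO43 (ENSSSCG00000053859, chromosome 4 from 36856662 to 36872753) was at 70.0, 62.5, 56.6 and 58.3 CPM in GV. MII libraries held 160, 133, 166, 151 and 125 CPM, and 'damaged' libraries 128, 145, 170, 133 and 150 CPM. In CPM all matured libraries exceeded all GV libraries, with a log2 fold change of 1.24 ± 0.11 (SE, adjusted p = 2.82e-09, limma-voom). FBXO5 (ENSSSCG00000004077, chromosome 1 from 13466961 to 13478496) was at 278, 228, 229 and 215 CPM in GV, at 296, 280, 357, 276 and 288 CPM in MII and at 237, 265, 243, 333 and 338 CPM in 'damaged' libraries. GV and matured libraries overlapped for FBXO5, and its log2 fold change of 0.29 ± 0.12 (SE) did not pass (adjusted p = 0.034). Without GV replicate 1, the GV library with the most FBXO5, the value was 0.38 and passed (adjusted p = 0.00789). MII replicate 3 stood above the other 4 MII libraries.

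On TPM, FBXO5 went the other way, at 301, 318, 295 and 342 TPM in GV and 144 to 257 TPM in the 10 MIX libraries, so its direction depends on the scaling. The TPM ratio of FBXO43 to FBXO5, which does not, was 0.190 to 0.211 in GV, 0.334 to 0.421 in MII and 0.307 to 0.539 in 'damaged' libraries. Among the matured libraries, FBXO43 thus made up more of the inhibitor RNA than in each GV library, but remained the less abundant inhibitor in all of them.

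Among the subunits, 5 of 6 were called higher with TMM factors, where 30.4% of all genes were. When only library sizes were used for scaling, ANAPC10, CDC16 and CDC27 were called higher, where 12.1% of all genes were. CDC23 was then called lower, where 60.5% of all genes were. CDC27 (ENSSSCG00000017308, chromosome 12 from 16810868 to 16882271) was the most abundant, at 224, 139, 191 and 155 CPM in GV, 404, 430, 540, 416 and 550 CPM in MII and 482, 408, 514, 439 and 423 CPM in 'damaged' libraries. Its log2 fold change was 1.39 ± 0.13 (SE, adjusted p = 3.17e-09). CDC16 (ENSSSCG00000020899, chromosome 11 from 79084243 to 79111758), its partner in the arm, rose the most among the subunits, by 1.80 ± 0.18 (SE, adjusted p = 8.49e-09). It was at 26.4, 16.9, 23.0 and 11.2 CPM in GV, at 51.9 to 73.1 CPM in MII and at 56.2 to 84.2 CPM in 'damaged' libraries. In CPM, GV replicates 1 and 4 were the higher and replicates 2 and 5 the lower GV libraries for both genes. On TPM this did not hold for CDC27, with 87.8 TPM in GV replicate 5, 86.6 TPM in replicate 1 and 87.7 TPM in replicate 4.

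The scaffold genes and the substrate receptor rose as well. ANAPC1 (ENSSSCG00000008105, chromosome 3 from 44483961 to 44605035) went from 45.8 to 50.9 CPM in GV to 72.8 to 126 CPM in MIX, with a log2 fold change of 1.07 ± 0.13 (SE). ANAPC4 (ENSSSCG00000025902, chromosome 8 from 19301253 to 19341463) went from 16.3 to 25.5 CPM in GV to 34.6 to 58.6 CPM in MIX, by 1.25 ± 0.16. For ANAPC10 (ENSSSCG00000033871, chromosome 8 from 83353217 to 83497570), GV libraries held 19.5 to 47.9 CPM and MIX libraries 66.5 CPM or more, a log2 difference of 1.44 ± 0.17. With TMM factors groups did not overlap for these 3 genes, as in 24.4% of all genes in this direction. Their adjusted p-values (limma-voom) were 3.75e-07, 4.01e-07 and 1.01e-07. When only library sizes were used for scaling, groups overlapped for all 3. ANAPC1 was then at 61.9 to 83.2 CPM in GV and at 61.0 to 103 CPM in MIX.

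CDC23 (ENSSSCG00000014325, chromosome 2 from 140211334 to 140245728), the remaining gene of the arm, was near the lower limit of detection, with at most 41.7 counts in the 4 GV libraries and at most 23.3 counts in the 10 MIX libraries. That made 0.817 to 1.93 CPM in GV and 0.525 to 1.77 CPM in MIX, with overlapping groups. The log2 difference of -0.70 ± 0.30 (SE) did not pass (adjusted p = 0.043), and at this depth no firmer statement on CDC23 can be made. Without GV replicate 1, the GV library with the least CDC23, the difference was -0.93 and passed (adjusted p = 0.00739).

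The scaling of the libraries bears on these directions. TMM factors were 1.35 to 1.73 in the 4 GV and 0.794 to 0.922 in the 10 MIX libraries. When only library sizes were used, the median of all 13220 genes shifted from -0.16 to -1.06, 4 of the 10 genes (CDC20, ANAPC10, CDC16 and CDC27) were called higher, against 12.1% of all genes, and 3 (FZR1, FBXO5 and CDC23) were called lower, against 60.5% of all genes. FBXO43, ANAPC1 and ANAPC4 kept a positive log2 fold change of 0.34, 0.17 and 0.37 that did not pass, and FBXO5 turned to -0.61. A change of scaling shifts all genes by about the same amount. Values relative to the median of all genes were thus nearly the same by construction. CDC20 stood 2.22 above the median with TMM factors and on library sizes, FBXO5 0.45 above it in both, and FZR1 at -2.55 in both. Each library measures shares of its own RNA, so a change in all RNA per oocyte was not measured, and since the cDNA kit primes on poly(A) tails, more RNA and longer tails cannot be told apart.

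**Figure D3:**
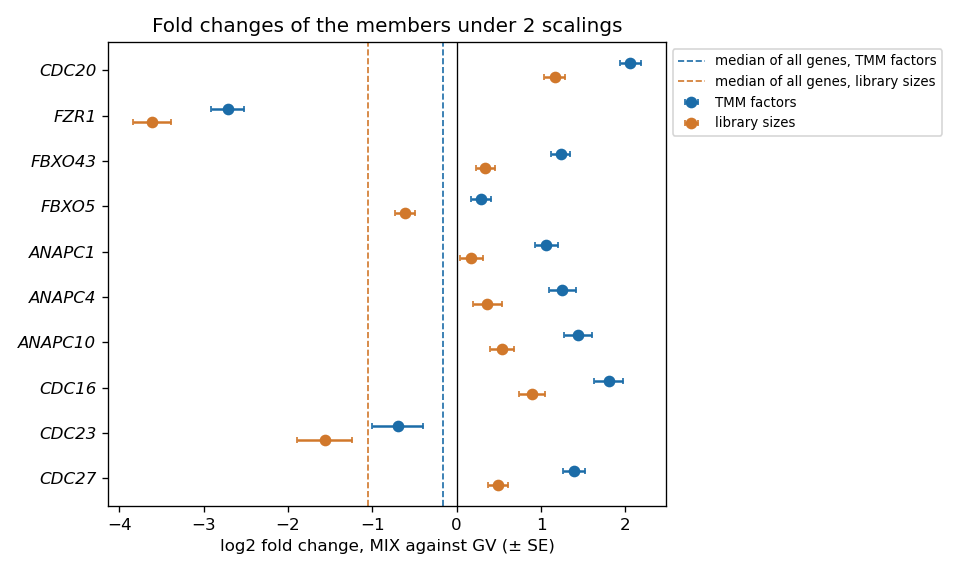
Log2 fold change of MIX against GV (4 GV and 10 MIX libraries) for each gene with its SE, with TMM factors (blue) and on library sizes (orange); dashed lines mark the median of all genes tested under each scaling. By construction CDC20 lies about equally far above the median under both scalings (2.22), while FBXO5 lies on either side of 0 (0.29 and -0.61).

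Compared apart, MII and 'damaged' oocytes gave like values against the same 4 GV libraries, which both comparisons share. In MII against GV, 7 genes were called higher and 1 lower, where 28.2% and 34.2% of all genes were. In 'damaged' against GV, 7 were called higher and 1 lower, where 28.0% and 33.4% of all genes were. The 8 libraries of agreeing names gave 7 higher and 1 lower in both comparisons. CDC20 was at 2.01 ± 0.14 in MII and 2.10 ± 0.14 in 'damaged' (log2 fold change ± SE), FZR1 at -2.71 ± 0.24 and -2.73 ± 0.24, and FBXO43 at 1.24 ± 0.13 and 1.23 ± 0.13.

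Set against each other directly, no difference between MII and 'damaged' passed in any of the 10 genes (adjusted p = 1.00 for each, limma-voom), and 0% of all genes were called. At an unadjusted p under 0.05 there were 195 of 13220 genes with limma-voom, 271 with the quasi-likelihood test of edgeR and 252 with DESeq2, and neither of these called any gene. With the replicate number added to the limma-voom fit as a block there were 353. The lowest adjusted p was then 0.0231, and no gene was called. Each count was under the share of 0.05 that p-values would give if no gene differed. Without that block, the log2 differences, MII minus 'damaged', ran from -0.09 ± 0.13 (SE) for CDC20 to 0.17 ± 0.16 for ANAPC4. For FZR1 the difference was 0.02 ± 0.27 and for FBXO43 0.01 ± 0.12. CDC23, with an SE of 0.40, was the gene in which a difference would have been hardest to see. A p that misses the threshold does not show that the groups were equal, and the labels of MII and 'damaged' replicates 1 and 2 are among those on which the deposited tables disagree. With the 8 libraries of agreeing names 0 genes were called as well.

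Levels per transcript length placed FBXO5 at the top in each group, with 314 ± 20.9 TPM in GV (SD, n = 4), 193 ± 33.7 in MII and 190 ± 47.0 in 'damaged' (SD, n = 5 each). CDC20 followed with 86.6 ± 10.4 TPM in GV, 137 to 185 TPM in MII and 188 ± 37.5 TPM in 'damaged'. In GV the ranges of CDC20 and CDC27 (82.8 ± 9.05 TPM) overlapped, as did those of CDC27 and FBXO43 (63.2 ± 7.12 TPM). In MII and 'damaged', CDC20 rather overlapped with FBXO5 and did not overlap with CDC27 (108 ± 21.7 and 107 ± 11.5 TPM). The gap to CDC27 was small in MII, with 137 TPM in the lowest library for CDC20 and 136 TPM in the highest for CDC27. CDC20 thus moved from the level of CDC27, the most abundant subunit among the genes described, to that of FBXO5. Subunits outside these genes could be higher on TPM, such as ANAPC15 at 170 TPM in GV and 308 TPM in MIX. Both a rise of CDC20 and a fall of FBXO5 on TPM went into this.

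FZR1 took the fifth place in GV at 26.4 ± 11.6 TPM, beside ANAPC10, CDC16 and ANAPC1, whose ranges overlapped with their neighbours in the order. It was at 1.86 ± 0.41 TPM in MII and at 1.98 ± 0.83 TPM in 'damaged', below the subunits ANAPC1 and ANAPC4 and without overlap with them. ANAPC1, at 18.4 ± 3.22 TPM in GV, 19.5 ± 3.56 in MII and 18.4 ± 1.97 in 'damaged', hardly moved on this scale. CDC23 stayed last, at 1.35 ± 0.58 TPM in GV and 0.38 ± 0.16 and 0.41 ± 0.19 TPM in MII and 'damaged', although CDC16 and CDC27, of the same arm, were at 31.0 ± 3.65 and 108 ± 16.4 TPM in MIX (SD, n = 10). The ratio of CDC20 to ANAPC1 was 3.76 to 5.79 in GV and 6.24 to 13.7 in MIX, so the co-activator rose relative to the scaffold in each matured library.

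**Figure D4:**
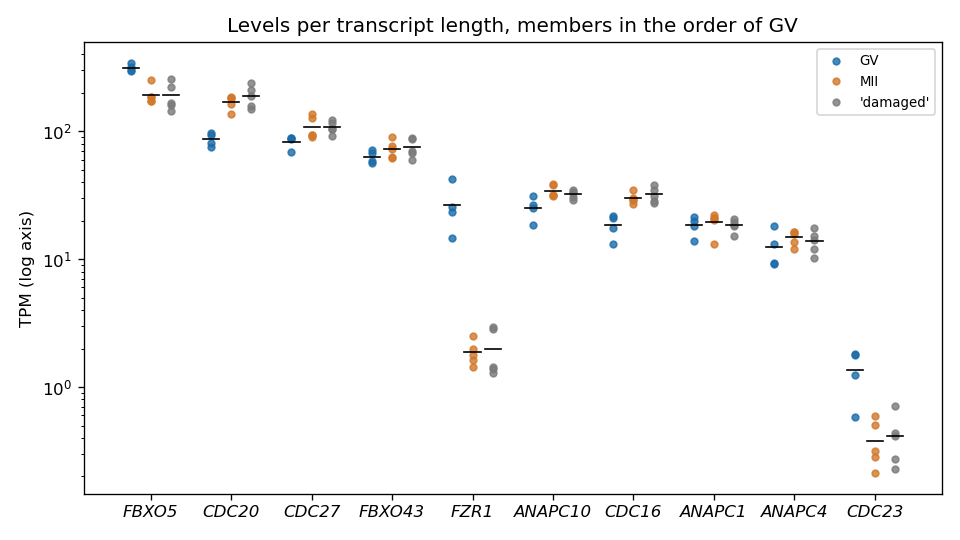
TPM of each gene by library on a log axis, in the order of the GV means; points are libraries (4 GV, 5 MII, 5 'damaged') and black lines are means. FZR1 falls from the middle of the order (26.4 TPM) to below 3 TPM, while CDC20 rises and FBXO5 falls to overlapping levels.

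At the level of transcripts, CDC27 changed its composition. It has 4 transcripts in the annotation used, of 4143, 5335, 5410 and 5528 bases. The shortest, ENSSSCT00000054238.3, made up 7.56% ± 5.12 (SD, n = 4) of the gene's TPM in GV, 39.5% ± 4.42 in MII and 40.7% ± 5.17 in 'damaged' (SD, n = 5 each). It was at 7.62, 0, 9.62 and 9.19 TPM in the 4 GV libraries and at 30.6 to 57.8 TPM in the 10 MIX libraries. The transcripts of 5410 and 5528 bases together held most of the remainder, at 39.5 ± 7.45 and 36.3 ± 9.70 TPM in GV and 30.6 ± 9.44 and 32.8 ± 11.4 TPM in MIX. The rise of CDC27 on TPM thus lay mostly in the shortest transcript.

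In the test of transcript usage (limma diffSplice), ENSSSCT00000054238.3 rose against the other CDC27 transcripts by 4.75 on the log2 scale (adjusted p = 1.37e-06). That value leans on GV replicate 2, in which it had no counts: without that library it was 2.62 and still passed, and with the 8 libraries of agreeing names it was 2.58 (adjusted p = 5.07e-06). Of the 6 genes with several transcripts tested, 4 had a transcript whose usage was called (ANAPC1, CDC16, CDC27 and FBXO5), where 48.5% of all 5304 such genes had. FBXO5 shifted toward its short transcript of 1863 bases, from 97.2% ± 0.60 (SD, n = 4) in GV to 98.5% ± 0.22 (SD, n = 10) in MIX, at the cost of that of 6128 bases (log2 usage -0.87, adjusted p = 0.000523).

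The other usage calls were less steady. In ANAPC1, ENSSSCT00000059545.3 fell by 4.59 on the log2 scale (adjusted p = 3.27e-05), but it made up just 2.56% of the gene in GV and 0.40% in MIX. The other called ANAPC1 transcripts, of 6402 bases (1.14) and of 7091 bases (-1.61), did not pass with the 8 libraries of agreeing names (adjusted p = 0.0966 and 0.0461). For CDC16, the transcripts of 2195 bases and 5824 bases were called at -3.27 and 3.27 (adjusted p = 0.00819), and these calls did not hold. The share of the 2195-base transcript in the TPM of CDC16 was in fact higher in MIX, at 91.9% ± 1.04 (SD, n = 10) against 87.5% ± 2.70 (SD, n = 4) in GV, and its log2 usage turned to 2.81 without GV replicate 1 and to 1.24 with the 8 libraries of agreeing names. Of 14 fits that left out 1 library, 12 and 10 changed the call or the direction, and no direction is drawn for CDC16. The 4 FZR1 transcripts tested all fell, with log2 fold changes between -6.46 and -2.54, and none was called for usage. Among all 22 transcripts of these genes that were tested, 9 were called higher, where 23.5% of all transcripts were, and 6 lower, where 31.0% were.

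**Figure D5:**
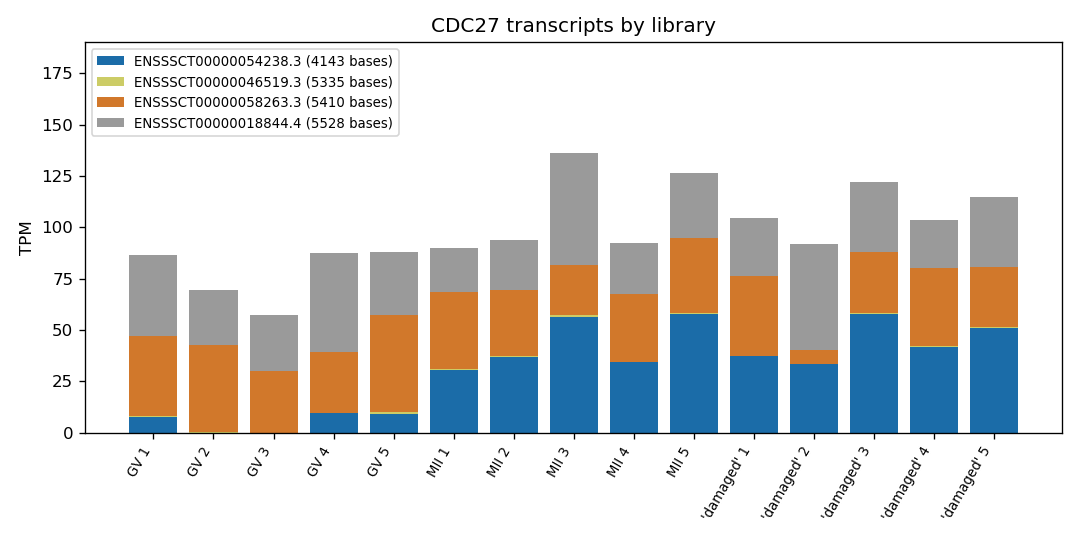
TPM of the 4 CDC27 transcripts, stacked, in each of the 15 libraries. The shortest transcript (4143 bases, blue) is at 0 to 9.62 TPM in the GV libraries and at 30.6 TPM or more in each MII and 'damaged' library.

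Genes that work with the complex were counted from lists, to be read against the 30.4% of all genes called higher and 37.2% called lower, or, on library sizes, 12.1% and 60.5%. The lists are not separate sets, since some genes count in more than 1 list. Among them are ANAPC15 (other subunits and spindle checkpoint) and PLK1 (genes that act on the inhibitors and substrates). Of 8 other subunits, ANAPC11 was not found and ANAPC2, the cullin subunit, had at most 15.8 counts in a library and was not tested. Of the 6 tested, 4 were called higher and 1 lower, and on library sizes 1 was called higher and 2 lower. ANAPC15, which takes part in releasing CDC20 from the checkpoint complex, rose the most (1.88 ± 0.12, SE), and CDC26, a small partner of CDC16, fell by 3.17 ± 0.18 on the log2 scale. CDC26 went from 58.3 to 112 CPM in GV to 6.93 to 15.4 CPM in MIX, opposite to CDC16. Of 3 ubiquitin-conjugating enzymes, UBE2D1 rose (2.02 ± 0.13), and UBE2C and UBE2S, which work with the APC/C, did not pass (0.62 ± 0.22 and 0.28 ± 0.57).

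The spindle checkpoint holds CDC20 back until chromosomes are attached. Of 9 genes, 5 were called higher and 3 lower, and BUB3 did not pass, with 4 higher and 4 lower on library sizes. MAD2L1, which binds CDC20, rose the most (2.68 ± 0.18), and MAD2L1BP, which helps to take MAD2L1 off CDC20, fell the most (-2.77 ± 0.16). Of 11 genes tested that act on the inhibitors, 3 were called higher and 4 lower, shares near those of all genes (30.4% and 37.2%), and on library sizes 1 was called higher and 8 lower. CUL1 was highest (1.39 ± 0.11), and PLK1, a kinase that marks FBXO43 and FBXO5 for destruction, was lowest (-1.14 ± 0.21).

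Among 15 APC/C substrates tested, 10 were called higher and 3 lower, where 30.4% and 37.2% of all genes were, with a median log2 fold change of 1.36. CCNB1, which encodes cyclin B1, rose from 693 to 1181 CPM in GV to 4395 to 5770.5 CPM in MIX (2.55 ± 0.12), and TK1, thymidine kinase, fell the most (-3.54 ± 0.26). PTTG1, AURKA and RRM2 were not found. On library sizes the median of the substrates was 0.47, and 6 were called higher and 4 lower, where 12.1% and 60.5% of all genes were. CCNB1 was then at 1.65 and TK1 at -4.43. The oocyte markers were not stable references. With TMM factors, 1 of 11 was called higher (OOSP2, 2.42 ± 0.24) and 6 lower, with ZP3 lowest (-4.31 ± 0.19). Of 4 cumulus markers tested 2 were called lower, with HSD17B1 lowest (-5.76 ± 0.43). The shares of all genes were 30.4% and 37.2%. On library sizes, 1 oocyte marker was called higher and 10 lower, and 4 cumulus markers were called lower, where 12.1% and 60.5% of all genes were.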

How the data were processed

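Pig oocyte RNAseq libraries were taken in the groups GV, MII and 'damaged' that GEO's labels give, 5 each. Per the labels and the paper's methods, cDNA was made with the SMART-Seq HT kit and sequenced single-end. The authors trimmed reads with AfterQC and estimated counts and TPM per transcript with Kallisto (version 0.43 in the submitters' processing notes) on the Ensembl cDNA of Sscrofa11.1. The expected counts per gene deposited by the authors come from tximport (lengthScaledTPM), before filtering.

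In the gene table, names and totals agreed in 8 columns. In the remaining 7 they did not, and these columns were left out. Transcripts were assigned to genes by comparing transcript TPM with the 8 columns, after which gene counts were recomputed for all 15 libraries. Assigned transcripts made up 18523 genes and 99.9879 to 99.9988% of counts, and deposited counts of 10 or more were met within 0.724%. In a simulation, the transcript set was exact for 98.6% of 2487 genes. Symbols covered 14172 genes. Positions are from RefSeq on Sscrofa11.1, by symbol.

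Genes were filtered with filterByExpr (edgeR 4.0.16, minimum count 10) and fitted with limma-voom (limma 3.58.1, R 4.3.3) with TMM factors, which the paper's methods do not name, on 14 libraries without GV replicate 3, with MIX against GV in a fit of 2 groups and the other comparisons in a fit of 3 groups. A gene was called at a Benjamini-Hochberg adjusted p under 0.01 over all genes tested, and was a DEG with an absolute log2 fold change above 2. Transcript usage was tested with diffSplice, not with the study's DEXSeq step. On simulated counts, limma-voom found all 200 genes given a log2 fold of 3 between MIX and GV, with 1 false call among 13039. As many genes were changed up as down, with the same spread for all genes. This simulation therefore does not bear on smaller folds or on the choice of scaling. The paper's methods describe 5 independent collections of oocytes of each group. That the replicate numbers mark these collections is not stated in the sources used here. The alternatives were library sizes, edgeR, DESeq2 1.42.0, other filters, summed Kallisto counts, a replicate block, each library left out, and all 5 GV libraries. The fits of 8 libraries with agreeing names and further transcript fits were added after seeing the data.

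The 10 genes, the lists and the tests were chosen with earlier results of these data known. All 10 genes are named, and of each list the largest rise and fall among those called in MIX against GV and genes under 10 counts in each library; OOSP2, ZP3 and others follow from that rule, while FBXO5, CDC23 and CDC27 transcripts, BUB3, UBE2C, UBE2S, ANAPC2 and list genes that were not found were named after seeing their values. The depth was 6.40 to 23.6 M per library, and no interval for counting error was used.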

Additional observations from a re-analysis of the deposited data

Results flagged for a closer look

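Among the 30 groups formed by 10 genes and 3 stages, a library stood apart from its group by Dixon's ratio in 2, where chance marks about 1 in 20 groups. FBXO5 was at 357 CPM in MII replicate 3, above the other 4 MII libraries at 276 to 296 CPM. CDC16 was at 84.2 CPM in 'damaged' replicate 1, above the other 4 'damaged' libraries at 56.2 to 63.6 CPM. The labels of 'damaged' replicate 1 are among those on which the deposited tables disagree. The log2 fold change of CDC16 in 'damaged' against GV was 1.96 with the 8 libraries of agreeing names, which leave this library out.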

How the results depend on the processing

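The calls on the 10 genes in MIX against GV were the same with edgeR, DESeq2, no filter on low counts, summed Kallisto counts, all 5 GV libraries and the 8 libraries of agreeing names. On library sizes, genes called higher and lower numbered 1595 and 8000 in MIX against GV, 1446 and 7609 in MII against GV and 1476 and 7402 in 'damaged' against GV, instead of 4013 and 4917, 3727 and 4520, and 3698 and 4417. Of the 10 genes, 4 and 3, 4 and 3, and 3 and 3 were then called, and FBXO5 turned to -0.61, -0.59 and -0.63. By construction, that setting leaves out the TMM factors, and nothing else was changed. With a filter of 10 CPM, 7465 genes were tested, 2658 were called higher and 3043 lower in MIX against GV, and 2890 and 2839 lower in MII and 'damaged' against GV. FBXO5 was then at -0.035 in MIX and -0.072 in 'damaged' against GV, CDC23 was not tested, and the cause was not tested. Leaving out 1 library at a time gave 1 to 2 genes called lower of the 10 in MIX against GV, with the second, CDC23, without GV replicate 1; FBXO5 was then called higher. Rescaling TPM by TMM factors changed the rank of 2 genes in GV. With the 8 libraries, 2 transcripts were called for higher usage instead of 4.

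The groups may share collections, but no source used here ties the replicate numbers to them, and same-numbered libraries are not shown to be paired. Their deviations from the group means correlated at -0.10 to 0.32 (13 pairs, 3 over 0.1), and 9 of 14 libraries correlated best with a library of their own number, which is a hint of pairing. A replicate block gave 4057 genes called higher and 4855 lower in MIX against GV and changed no call on the levels of the 10 genes. In transcript usage, 4 were called higher and 3 lower under the replicate block: both CDC16 transcripts (0.36 and -0.36) and ENSSSCT00000059545.3 of ANAPC1 (-1.77) did not pass, and 2 FZR1 transcripts did (1.71 and -3.71). Depth limits CDC23, with at most 41.7 counts in a GV library of the fit, and the minor transcripts of FZR1, ANAPC1 and CDC16, which reach 0 counts in single libraries.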
